A study of Mus musculus with 6 samples.

Results

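The phagocyte NADPH oxidase complex is followed here through 7 of its genes, Cybb, Cyba, Ncf1, Ncf4, Rac1, Rac2 and Hvcn1, in RNA-seq libraries of mouse lung neutrophils. The genes were chosen by name for what they encode and were found by their Ensembl identifiers, paired with symbols through GENCODE M21, among the 55487 genes of the deposited count table. All 7 passed the filter on low counts that left 15774 genes for testing. The 3 mutant libraries come from Mrp8-Cre;TGFbR2-fl/fl mice, which carry a transgene with Cre recombinase and EGFP under the S100A8 (Mrp8) promoter and loxP-flanked Tgfbr2, the type II TGF-beta receptor gene. The 3 wt libraries come from Cre-negative TGFbR2-fl/fl littermates, so both groups have the loxP-flanked alleles and the mutants alone carry Cre and EGFP. The cells were sorted as Ly6G-positive from perfused, liberase-digested lungs. Sample titles give only the group and a library code, so the replicates of each group are numbered here in the order of the series. The design states 3 mice per group, the labels do not tie a library to a mouse, and no ages are stated there, so p-values reflect how far the libraries differ among themselves, which may be technical.

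The oxidase passes electrons from cytosolic NADPH across a membrane to oxygen and so makes superoxide, from which phagocytes form the oxidants that kill microbes. Its membrane core, flavocytochrome b558, pairs the catalytic gp91phox, encoded by Cybb, with the stabilising p22phox, encoded by Cyba. In a resting neutrophil the organiser p47phox (Ncf1) and the lipid-binding p40phox (Ncf4) wait in the cytosol with other subunits and dock on that core after phosphorylation, together with a Rac GTPase in its GTP-bound form. Each electron that crosses leaves charge and acid behind, and the voltage-gated proton channel encoded by Hvcn1 lets protons follow. Inherited loss of a core or cytosolic subunit is the cause of chronic granulomatous disease in humans.

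Library totals ran from 30403494 to 35906780 counts, and 3 counts in a library stood for 0.0829 to 0.102 CPM, the TMM-scaled read count relative to library size, a floor that covers counting error only. Of the genes tested, 0.00634% (1 gene, which is not one of the 7) reached an adjusted p under 0.05 in edgeR's quasi-likelihood test with Benjamini-Hochberg adjustment over all genes. The summed CPM of 9 neutrophil markers was 23286 to 28847 in mutant and 24043 to 25487 in wt libraries, with 2 of 9 higher on average in mutants, and Ly6g itself was at 14.4 to 33.6 CPM in mutant and 19.3 to 35.2 CPM in wt libraries. Other lung cells that carry the oxidase left transcripts too. Markers of alveolar macrophages summed to 279 to 315 CPM in mutant and 204 to 272 CPM in wt libraries, with 10 of 10 markers higher on average in mutants. Marco, a scavenger receptor of these macrophages, was at 7.38 to 10.98 CPM in mutant and 3.88 to 8.15 CPM in wt libraries. Markers of monocytes and interstitial macrophages summed to 798 to 850 CPM in mutant and 875 to 899 CPM in wt libraries, with 3 of 9 higher in mutants, and most of that sum was Csf1r, at 546 to 614 CPM in mutant and 624 to 681 CPM in wt libraries. Markers of B and plasma cells summed to 436 to 466 CPM in mutant and 288 to 468 CPM in wt libraries, with 6 of 7 higher. Eosinophil markers summed to 5.84 to 12.7 CPM in mutant and 6.93 to 11.97 CPM in wt libraries, with Epx, their peroxidase gene, at 0 in all 6 libraries. Lung tissue left transcripts as well: epithelial markers summed to 469 to 855 CPM in mutant and 215 to 481 CPM in wt libraries, and endothelial markers to 1012 to 1263 CPM in mutant and 1127 to 1393 CPM in wt libraries. The part of these cells in the values below was not tested. In RNA from a sorted population, fewer cells of a type and less RNA per cell cannot be told apart. Tgfbr2 was at 187 ± 15.4 CPM across mutants against 191 ± 8.74 CPM across wt libraries (SD, n = 3 each). That value pools all exons of the gene and does not check the genotype labels.

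Rac1 (chromosome 5) and Rac2 (chromosome 15) have similar coding sequences, which bears on how their reads were assigned. Over the 579 bases of their coding sequences in GENCODE M21, including the stop codon, 446 positions (77.0%) are identical, and 133 differ. The longest run shared without a mismatch, here and in the whole transcripts, is 29 bases. Reads came from a run of 151 cycles per end, longer than the shared run, so a full-length read from either coding sequence meets at least 1 position that tells the genes apart.

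The promoter of Cybb is shown because the transcription factors known to act on it were measured in the same libraries. RefSeq's window for GRCm38.p6 runs from 250 bases before to 50 after the annotated start, at chrX:9469275-9469574 on the minus strand, and is printed 5′ to 3′ along the gene. That start is also the start of Cybb-201 in GENCODE M21, while 1 of the 5 GENCODE transcripts of the counted gene starts 18447 bases further upstream. Capitals mark a CCAAT box, which opens 56 bases before the start, and the core bound by the myeloid factor PU.1, GAGGAA, read here on the opposite strand as TTCCTC from base 10 after the start.
Cybb: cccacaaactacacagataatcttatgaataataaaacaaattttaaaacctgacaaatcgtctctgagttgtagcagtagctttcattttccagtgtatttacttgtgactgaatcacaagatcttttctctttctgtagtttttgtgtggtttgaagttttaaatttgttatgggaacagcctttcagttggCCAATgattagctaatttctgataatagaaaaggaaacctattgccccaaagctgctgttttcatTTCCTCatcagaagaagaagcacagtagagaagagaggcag
Both motifs are common. GAGGAA, searched on both strands, is in 28.3% and CCAAT in 37.4% of the 32851 windows of the same 300 bases. The windows of Cyba and Ncf1, the other members with a RefSeq window here (3 of 7 matched), held neither string, which says only that these letters are not in those bases.

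The genes stood at very different levels. Levels between genes are given in TPM, which divides counts by the merged exon length before scaling by library, as means ± SD over the 6 libraries. Rac2, the Rac isoform largely confined to blood cells, was the most abundant at 2165 ± 212 TPM and ranked 73 among the 15774 tested genes. Cyba followed at 802 ± 105 TPM (rank 191), Ncf4 at 615 ± 107 TPM (rank 242) and Ncf1 at 498 ± 150 TPM (rank 298). Rac1, the Rac isoform made in nearly all cells, was at 258 ± 12.6 TPM. Cybb, which encodes the catalytic subunit, came well below its partners at 67.1 ± 15.9 TPM (rank 1804), and Hvcn1 was the lowest of the members at 4.15 ± 1.53 TPM (rank 9322).

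**Figure D1:**
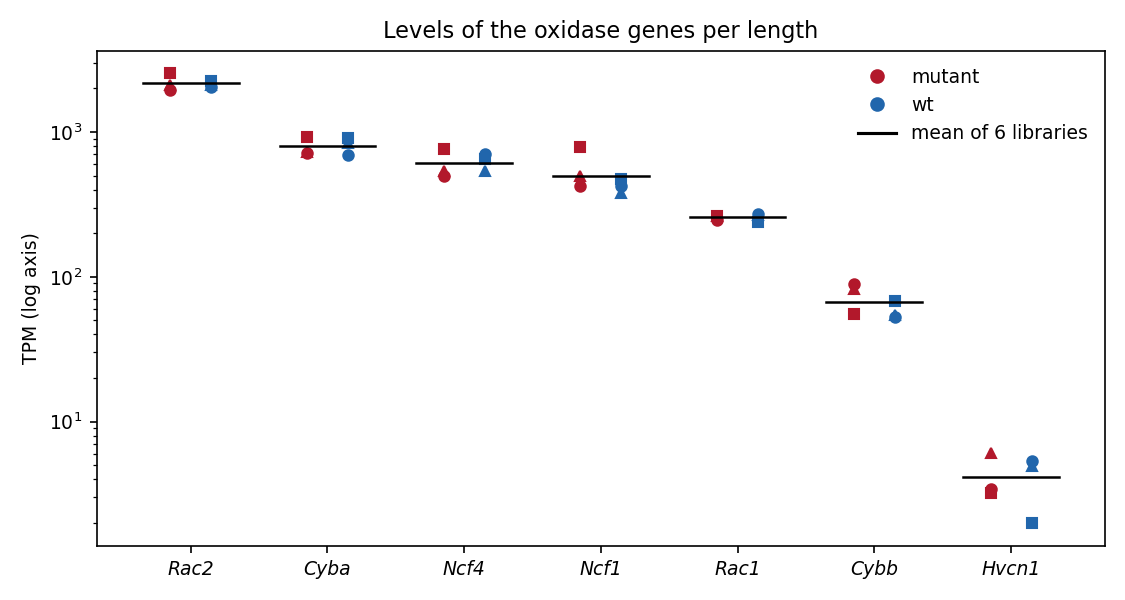
TPM (vertical log axis) of the 7 oxidase genes in each mutant (red) and wt (blue) library, with circle, square and triangle for replicates 1 to 3 and a bar for the mean of the 6 libraries. Rac2 leads at 2165 TPM and Hvcn1 closes the order at 4.15 TPM, with Cybb at 67.1 TPM well under Cyba, Ncf4 and Ncf1.

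Most steps of that order held in every library. Rac2 lay above Cyba, Ncf1 above Rac1, Rac1 above Cybb and Cybb above Hvcn1 in 6 of 6 libraries, with no overlap of their ranges. The middle of the order was not separated: Cyba lay above Ncf4 and Ncf4 above Ncf1 in 5 of 6 libraries each, the exceptions being wt replicate 1 and mutant replicate 2. Between the partners of the membrane core, Cyba exceeded Cybb by 7.96, 16.8 and 8.82 times in TPM in mutant replicates 1 to 3 and by 13.2, 13.5 and 15.3 times in wt replicates 1 to 3. The mutant range encloses the wt range, with mutant replicate 2 highest and the other mutants lowest.

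Rac2 made up 88.7%, 90.7% and 89.0% of the Rac1 plus Rac2 TPM in mutant replicates 1 to 3, against 88.2%, 90.4% and 88.8% in wt replicates 1 to 3. The shares of the groups overlap throughout. The size of this excess depends on a neighbour: 51.4% of the merged exon bases of Rac1 (2309 of 4496) also lie in exons of Daglb, an enzyme gene on the opposite strand at 65.2 CPM on average. The protocol does not mark strand, and how the authors' counting treated shared bases was not stated. Had reads over shared bases been dropped, only 2187 bases of Rac1 would have been countable. Rac1 would then stand at 530 TPM, with genes other than the members left at their merged exon lengths and no rescaling. On that basis Rac1 is level with Ncf1 and Ncf4 (above each in 3 of 6 libraries). Rac2 would exceed Rac1 by 3.63 to 4.74 times in place of 7.46 to 9.74 times.

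Of the 7 genes, 0 differed between mutant and wt libraries at an adjusted p under 0.05 by edgeR (background 0.00634%), and 0 did so by DESeq2, which called 0.983% of all genes, or by limma-voom. At an unadjusted p under 0.05, edgeR had 0 members, against 6.73% of all tested genes, and DESeq2 had 1, Cybb, against 7.92% of all genes. The mutant and wt libraries overlapped for all 7, while they did not overlap for 13.0% of all tested genes (6.82% with every mutant library above every wt library, 6.21% below). Log2 fold changes of mutant over wt were above 0 for 4 members and below 0 for 3, with a median of 0.04, against 50.7% above 0 and a median of 0.0054 over all tested genes.

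**Figure D2:**
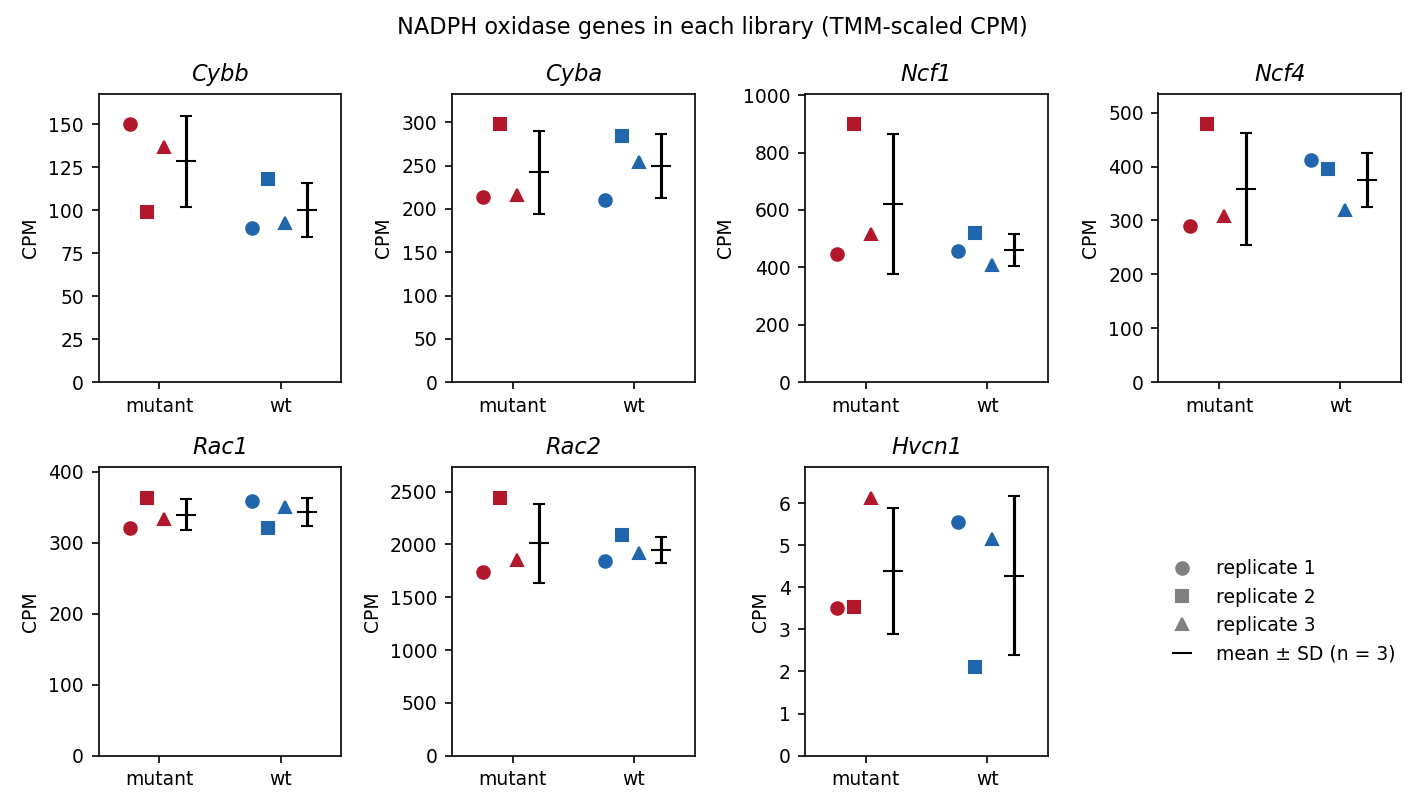
TMM-scaled CPM (vertical axes, from 0) of each oxidase gene in the 3 mutant (red, left) and 3 wt (blue, right) libraries, with black bars for the mean ± SD (n = 3). The groups overlap in all 7 panels, and mutant replicate 2 (red square) is the highest library for Cyba, Ncf1, Ncf4, Rac1 and Rac2.

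Cybb (ENSMUSG00000015340.10, minus strand of chromosome X, 9435252 to 9487771 in GRCm38) encodes gp91phox, the subunit that binds flavin and haem and carries the electrons. It was at 149.99, 98.9 and 137 CPM in mutant replicates 1 to 3, against 89.5, 118 and 92.5 CPM in wt replicates 1 to 3. Mutant replicates 1 and 3 lay above every wt library, whereas mutant replicate 2 lay below wt replicate 2. The means were 129 ± 26.5 CPM across mutants against 100.01 ± 15.7 CPM across wt libraries (SD, n = 3 each), a log2 fold change of 0.36 ± 0.17 (SE; 95% interval -0.017 to 0.74; adjusted p = 0.765 by edgeR). The unadjusted p was 0.059 by edgeR and 0.039 by DESeq2, whose adjusted p was 0.576. Without mutant replicate 2 the log2 fold change was 0.52 (adjusted p = 0.463 by edgeR), and over all 12 alternatives it stayed between 0.24 and 0.52. Cybb is X-linked, and all 6 libraries carried the female marker: Xist was at 73.1 to 84.6 CPM in mutant and 47.9 to 89.7 CPM in wt libraries, and the Y-linked genes Ddx3y and Eif2s3y were at 0 counts in all 6.

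Cyba (ENSMUSG00000006519.11, minus strand of chromosome 8, 122424776 to 122432930) encodes p22phox, which stabilises gp91phox and offers the docking site for p47phox. It was at 214, 298 and 216 CPM in mutant replicates 1 to 3, against 211, 284 and 254 CPM in wt replicates 1 to 3. High and low libraries occurred in both groups, and the ranges nearly coincide. The log2 fold change was -0.04 ± 0.16 (SE; 95% interval -0.39 to 0.31; adjusted p = 0.996 by edgeR).

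Among the cytosolic subunits, Ncf1 (ENSMUSG00000015950.13, minus strand of chromosome 5, 134220053 to 134229625) encodes p47phox, the organiser whose phosphorylation opens it for binding p22phox. It was at 447, 898 and 515 CPM in mutant replicates 1 to 3, against 455, 518 and 406 CPM in wt replicates 1 to 3. One library, mutant replicate 2, stands far above the other 5, which span a common range. The means were 620 ± 243 CPM across mutants against 460 ± 55.9 CPM across wt libraries (SD, n = 3 each), and the log2 fold change of 0.43 ± 0.22 (SE) spanned -0.068 to 0.93 at 95% (adjusted p = 0.799 by edgeR). Without mutant replicate 2 it was 0.06 (adjusted p = 0.974 by edgeR). Exons of Gtf2ird2, on the opposite strand and at 36.3 CPM on average, share 11.1% of the exon bases of Ncf1.

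Ncf4 (ENSMUSG00000071715.12, plus strand of chromosome 15, 78244801 to 78262580) encodes p40phox, which binds the phosphoinositide of phagosome membranes. It was at 289.7, 478 and 308 CPM in mutant replicates 1 to 3, against 413, 395 and 319 CPM in wt replicates 1 to 3. Mutant replicate 2 was the highest of the 6 libraries and the other mutants the lowest. The log2 fold change was -0.07 ± 0.18 (SE; 95% interval -0.48 to 0.34; adjusted p = 0.995 by edgeR), and it was -0.33 without mutant replicate 2 (adjusted p = 0.602).

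The cytosolic pair was also set against each other within each library. The ratio of Ncf1 to Ncf4 in TPM was 0.851, 1.04 and 0.923 in mutant replicates 1 to 3, against 0.608, 0.723 and 0.703 in wt replicates 1 to 3. Every mutant library lay above every wt library, and a ratio within a library does not depend on how libraries are scaled. The same held for Ncf1 over Rac2, at 0.2175 to 0.3117 in mutants and 0.1795 to 0.2104 in wt. These were 2 of the 21 ratios between members and were picked out after their values were seen, so they are given without a test. Both have Ncf1 as the numerator, so they are not separate observations. Among single genes 13.0% had groups that do not overlap, while the share among ratios of other gene pairs was not counted.

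The Rac GTPases were the steadiest members. Rac1 (ENSMUSG00000001847.14, minus strand of chromosome 5, 143503634 to 143528036) was at 321, 363 and 334 CPM in mutant replicates 1 to 3, against 358, 321 and 351 CPM in wt replicates 1 to 3. No library stands apart, and the log2 fold change was -0.02 ± 0.10 (SE; 95% interval -0.23 to 0.20; adjusted p = 0.997 by edgeR). Rac2 (ENSMUSG00000033220.7, minus strand of chromosome 15, 78559167 to 78572783) is the Rac that activates the oxidase in mouse neutrophils. It was at 1742, 2441 and 1857 CPM in mutant replicates 1 to 3, against 1845, 2086 and 1918 CPM in wt replicates 1 to 3. Mutant replicate 2 was again the highest library, and the log2 fold change was 0.05 ± 0.12 (SE; 95% interval -0.23 to 0.32; adjusted p = 0.995 by edgeR).

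Hvcn1 (ENSMUSG00000064267.13, plus strand of chromosome 5, 122206804 to 122242297) encodes the proton channel. It was at 3.51, 3.52 and 6.12 CPM in mutant replicates 1 to 3, against 5.55, 2.11 and 5.16 CPM in wt replicates 1 to 3, which rest on 64 to 199 counts per library. Both groups hold low and high libraries, and wt replicate 2 is the lowest. The log2 fold change of 0.04 ± 0.43 (SE) spanned -0.92 to 0.996 at 95% (adjusted p = 0.998 by edgeR), the widest interval of the members. Exons of Tctn1, on the opposite strand and at 12.9 CPM on average, cover 44.2% of the exon bases of Hvcn1, and reads there may have been given to either gene or to none. Had reads over shared bases been dropped, only 1989 bases of Hvcn1 would have been countable. Its level would then be 7.44 TPM in place of 4.15 TPM, with genes other than the members left at their merged exon lengths.

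**Figure D3:**
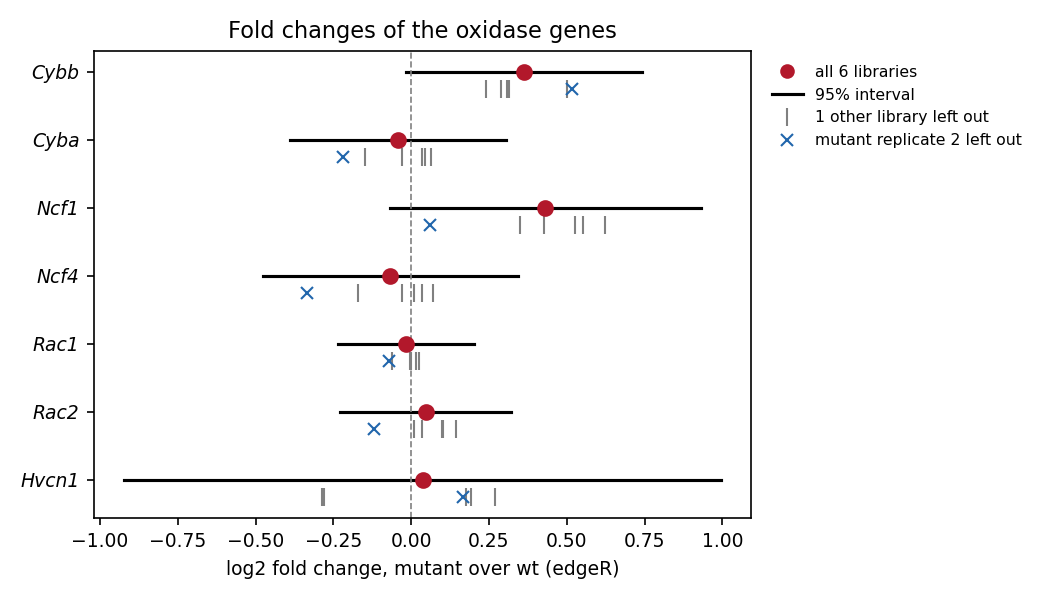
Log2 fold changes of mutant over wt for the 7 oxidase genes (red points) with 95% intervals (black lines), and the same with 1 library left out (ticks; blue crosses without mutant replicate 2). All 7 intervals cross 0, and leaving out mutant replicate 2 takes Ncf1 to 0.06 and Cybb to 0.52.

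Mutant replicate 2 stood at the edge of the range for most members. It was the highest of the 6 libraries for 5 of the 7 members (Cyba, Ncf1, Ncf4, Rac1 and Rac2), and for Cybb the lowest of the mutants. Relative to each gene's own mean over the libraries, on the log2 CPM scale, it deviated by 0.79 for Ncf1, 0.41 for Ncf4, 0.31 for Rac2, 0.29 for Cyba and 0.09 for Rac1, and by -0.18 for Cybb and -0.21 for Hvcn1. The same library had the highest sum of neutrophil markers, 28847 CPM. Much of that excess was Mmp9, at 7261 CPM there and 3755 to 4634 CPM in the other libraries. Of the neutrophil markers only Mmp9 and Retnlg were highest in mutant replicate 2. Mmp8 was lowest there, at 837 CPM, and S100a8 and Cxcr2 lay below every wt library. Its sums of alveolar macrophage (279 CPM) and monocyte and interstitial macrophage markers (805 CPM) lay within or below those of the other mutants. The part of cell composition in this pattern was not tested.

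**Figure D4:**
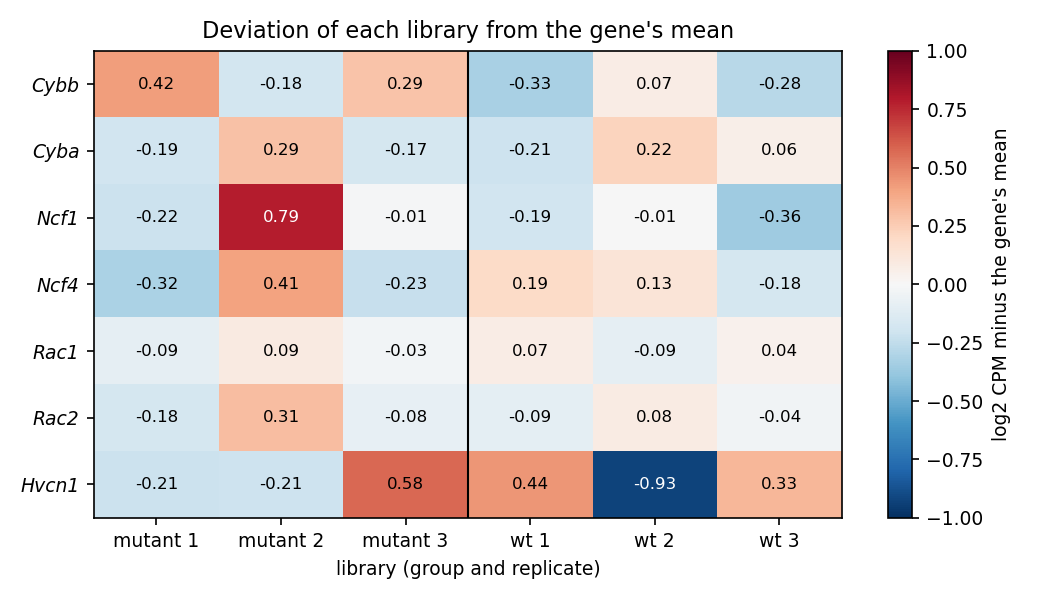
Deviation of each library from the gene's mean log2 CPM (colour and printed value) for the 7 oxidase genes, mutant libraries left of the line and wt libraries right of it. Mutant replicate 2 is above the mean for 5 genes, by up to 0.79 for Ncf1, and below it for Cybb and Hvcn1.

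The genes whose libraries rose and dipped most like each member were sought among 6904 other genes averaging 10 CPM or more, by the root mean square difference between log2 CPM profiles centred on their own means over the 6 libraries. The nearest were Usp36 for Cybb (0.047), Lamtor5 for Cyba (0.023), Tubb6 for Ncf1 (0.077), Mpc2 for Ncf4 (0.065), Slc35a2 for Rac1 (0.028), Brk1 for Rac2 (0.042) and Gem for Hvcn1 (0.104). Brk1, nearest to Rac2, encodes a subunit of the WAVE complex that builds branched actin downstream of Rac. The 7 members have 7 different nearest genes. These are descriptions over 6 libraries and carry no test.

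Around the complex, 9 lists held 103 genes that mature, switch, feed or contain it, of which 93 were tested and 0 passed over all genes by edgeR or limma-voom. DESeq2 called 3 lower (Cux1, Irf1 and S100a8), against 0.983% of all genes called in either direction. At an unadjusted p under 0.05 edgeR had 6 higher and 7 lower, against 3.51% and 3.22% of all tested genes. Log2 fold changes were above 0 for 44 and below 0 for 49 of the 93, with a median of -0.02. Every mutant library lay above every wt library for 9 of the 93 and below for 12. Over all tested genes the shares were 6.82% and 6.21%. Most list genes named below were picked by small p, which favours groups that do not overlap. The lists were drawn up with earlier results of these data known.

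Other members of the oxidase family were scarce. Of the 10 genes for NOX1, NOX3, NOX4, the DUOX enzymes, their partners and Rac3, 3 passed the filter on low counts, all with fold changes above 0 and 0 called (DESeq2 0; unadjusted p under 0.05, 0). Nox4, known from kidney, vessel wall and fibroblasts, was at 10.8 CPM across mutants against 9.14 CPM across wt libraries, while Nox3 and Duoxa1 had 0 counts in every library, and the remaining 5 untested genes did not exceed 0.663 CPM. Fibroblast markers summed to 371 to 600 CPM in mutant and 271 to 321 CPM in wt libraries beside Nox4, and their part in its value was not tested.

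Among 9 partners that mature or bind the oxidase, edgeR and limma-voom called 0 and DESeq2 1 lower (0.983% of all genes in either direction). Unadjusted p under 0.05 in edgeR marked 1 higher and 1 lower, against 3.51% and 3.22% of all tested genes. The median log2 fold change of the 9 was 0.0061. S100a8, 1 chain of the calprotectin dimer that carries arachidonate to the oxidase, was at 966, 1507 and 973 CPM in mutant replicates 1 to 3, against 1687, 1752 and 1688 CPM in wt replicates 1 to 3. All mutant libraries lay below all wt libraries, which holds for 6.21% of all tested genes. Mutant over wt gave -0.57 ± 0.16 (log2 fold change, SE) at an adjusted p of 0.405 by edgeR and 0.034 by DESeq2. Without mutant replicate 2, whose value is nearest to the wt libraries, edgeR called it lower. S100a9, the other chain, was at 637 to 1211 CPM in mutant and 1089.9 to 1229.9 CPM in wt libraries, with overlapping groups and an adjusted p of 0.754 by edgeR and 0.419 by DESeq2. The Cre transgene is driven by the S100A8 promoter and is carried by the mutants alone. The transgene itself and the recombination of Tgfbr2 therefore cannot be told apart here, for S100a8 or any other gene. Prdx6, a peroxiredoxin whose phospholipase activity promotes oxidase activation, was at 393 ± 31.7 CPM across mutants against 311 ± 49.1 CPM across wt libraries (SD, n = 3 each), with an adjusted p of 0.610 by edgeR. The chaperone Cybc1 (EROS), which gp91phox and p22phox need to reach the membrane, was at 155 CPM across mutants against 149.8 CPM across wt libraries, and Nrros, which promotes the loss of gp91phox in macrophages, at 420.3 CPM across mutants against 467 CPM across wt libraries.

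No gene of the Rac switch passed a test. Of 11 exchange factors and their partners, 4 had fold changes above 0 and 7 below, with a median of -0.05, 0 calls by edgeR, limma-voom and DESeq2, and 0 at an unadjusted p under 0.05. The smallest p belonged to Prex2, at 39.5 CPM across mutants against 34.2 CPM across wt libraries, and Vav3, at 32.6 CPM in mutant and 28.7 CPM in wt libraries (adjusted p 0.917 and 0.924 by edgeR). Of 7 genes for GDP dissociation inhibitors and GTPase-activating proteins, 5 were above 0 and 2 below, with a median of 0.10 and 0 calls in any of these tests. Abr, a GTPase-activating protein for Rac, was at 411 CPM across mutants against 464 CPM across wt libraries, and Arhgap15, another, at 248 CPM in mutant and 217 CPM in wt libraries (adjusted p 0.798 and 0.858 by edgeR).

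No kinase that acts on the subunits passed the adjusted tests. Of 14, 11 had fold changes below 0, with a median of -0.12, and 0 were called by edgeR, limma-voom or DESeq2. At an unadjusted p under 0.05 edgeR had 1 lower, against 3.22% of all tested genes. Syk, which couples Fc receptors, integrins and Dectin receptors to the burst, was at 848, 825 and 746 CPM in mutant replicates 1 to 3, against 1061, 942 and 936 CPM in wt replicates 1 to 3. The groups do not overlap, which holds for 13.0% of all tested genes. The log2 fold change of Syk was -0.28 ± 0.09 (SE), at an adjusted p of 0.551 by edgeR. Irak4, the kinase below Toll-like receptors, was at 80.0 ± 23.6 CPM across mutants against 103 ± 10.7 CPM across wt libraries (SD, n = 3 each). Of 14 lipid signalling genes 7 were above and 7 below 0, with a median of -0.01 and 0 calls by the 3 tools. Pik3r4, the regulatory subunit of the kinase that makes the lipid bound by p40phox, was at 16.3 ± 2.34 CPM across mutants against 22.1 ± 0.680 CPM across wt libraries (SD, n = 3 each; adjusted p = 0.677 by edgeR). It was the 1 gene of that list with an unadjusted p under 0.05 in edgeR, against 3.22% of all tested genes in that direction. Pld1, a phospholipase D, was at 8.16 ± 0.235 CPM across mutants against 10.8 ± 2.495 CPM across wt libraries (SD, n = 3 each; adjusted p = 0.851 by edgeR). Pld2, the other phospholipase D listed, averaged under 5 CPM and went the other way. It was at 5.95 ± 0.422 CPM across mutants against 3.87 ± 0.830 CPM across wt libraries (adjusted p = 0.783 by edgeR). Every mutant library lay above every wt library for Pld2, as for 6.82% of all tested genes. For Pld1 and Pik3r4 every mutant library lay below every wt library, as for 6.21% of all tested genes.

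Genes for charge and pH balance were split, with 6 of 10 above 0, a median of 0.02 and 0 calls by the 3 tools. Unadjusted p under 0.05 in edgeR marked 2 higher and 1 lower, against 3.51% and 3.22% of all tested genes. Trpm2, a cation channel opened by oxidative stress, was at 834, 988 and 860.0 CPM in mutant replicates 1 to 3, against 1159.9, 1050.3 and 1029 CPM in wt replicates 1 to 3. Its groups do not overlap, which holds for 13.0% of all tested genes. Mutant over wt gave -0.27 ± 0.10 (log2 fold change, SE) at an adjusted p of 0.593 by edgeR. Lrrc8b, a subunit of volume-regulated anion channels, was at 9.25 ± 2.27 CPM across mutants against 12.5 ± 2.67 CPM across wt libraries (SD, n = 3 each; adjusted p = 0.851 by edgeR). The higher genes, Kcnn4 and Kcna3, are potassium channels under 7 CPM in every library.

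Of 14 tested genes that handle superoxide and peroxide, 9 had fold changes above 0 and 5 below, with a median of 0.13 and 0 calls by the 3 tools. Unadjusted p under 0.05 in edgeR marked 3 higher, against 3.51% of all tested genes. Prdx1, a cytosolic peroxiredoxin, was at 54.1 ± 3.04 CPM across mutants against 41.4 ± 4.25 CPM across wt libraries. Txnrd1, which recharges thioredoxin, was at 319.7 ± 22.9 CPM across mutants against 260.4 ± 20.7 CPM across wt libraries, and Sod3, the secreted superoxide dismutase, at 89.3 ± 25.7 CPM across mutants against 62.7 ± 2.67 CPM across wt libraries (SD, n = 3 each). For these 3, named for their small p, every mutant library exceeded every wt library, with adjusted p of 0.584 to 0.594 by edgeR. Of all tested genes 6.82% were separated in that direction. Alveolar macrophage and fibroblast markers were higher in the same libraries, and their part in these values was not tested. Mpo, the peroxidase that turns hydrogen peroxide into hypochlorous acid, did not pass the filter and did not exceed 1.06 CPM.

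**Figure D5:**
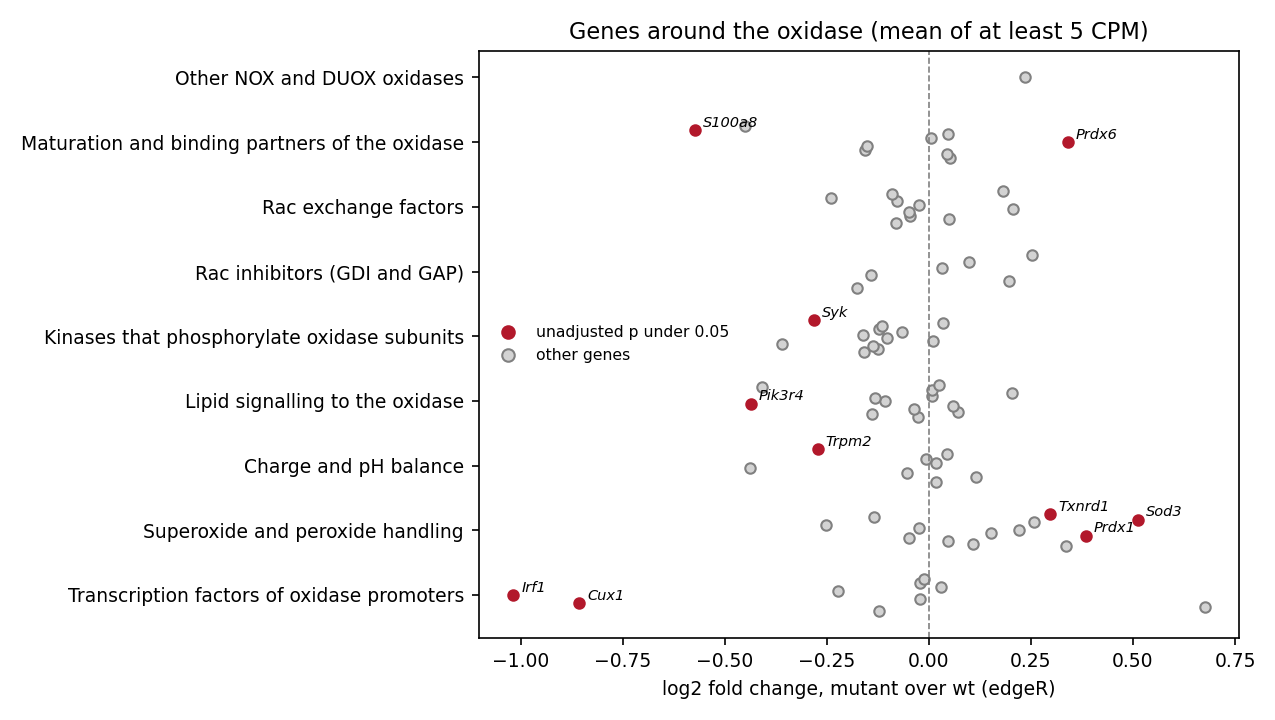
Log2 fold change of mutant over wt (horizontal axis, edgeR) of the genes of the 9 lists around the oxidase averaging 5 CPM or more, in red and named where the unadjusted p was under 0.05 (1 transcription factor gene is not shown). None had an adjusted p under 0.05 by edgeR; Cux1 and Irf1 lie farthest to the left, at -0.86 and -1.02.

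The transcription factors known at phagocyte oxidase promoters included the 2 smallest p-values of the lists. Of 11 tested, 9 had fold changes below 0, with a median of -0.12, and 0 were called by edgeR or limma-voom. DESeq2 called 2 lower, against 0.983% of all genes called in either direction. At an unadjusted p under 0.05 edgeR had 3 lower, against 3.22% of all tested genes. Cux1, known in human cells as the CCAAT displacement protein that represses the gp91phox promoter, was at 95.3, 102 and 86.6 CPM in mutant replicates 1 to 3, against 193, 155 and 165 CPM in wt replicates 1 to 3. Irf1, an interferon-induced activator of the human promoter, was at 324, 337 and 301 CPM in mutant replicates 1 to 3, against 889.8, 448 and 613 CPM in wt replicates 1 to 3. Both are lower in every mutant library than in any wt library, as are 6.21% of all tested genes. Their log2 fold changes were -0.86 ± 0.12 and -1.02 ± 0.20 (SE). Adjusted p was 0.188 and 0.276 by edgeR, against 1.83e-07 and 0.00012 by DESeq2. Whether either difference bears on the level of Cybb was not tested. Spi1, which encodes PU.1, was at 1276, 1641 and 1419.7 CPM in mutant replicates 1 to 3, against 1407, 1515 and 1454 CPM in wt replicates 1 to 3, with overlapping groups and an adjusted p of 0.998 by edgeR.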

How the data were processed

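The values the authors deposited are raw counts, whole reads for each gene without normalization, with the merged exon length of each gene. The tools named in the submitters' processing notes are STAR and featureCounts, on GRCm38; their versions, the annotation release and strand handling were not stated. Libraries were made from total RNA of sorted cells by SMART-Seq v2 and Nextera XT, per the labels' protocols, a method without strand marks or molecular identifiers. Spike-in RNA was added, and the table holds 0 spike-in rows. Member positions in the table equal those of GENCODE M21. Of the identifiers, 55094 matched a symbol exactly, 300 without version and 93 not at all.

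Counts were filtered by edgeR's filterByExpr (minimum count 10), scaled by TMM and compared as mutant against wt, unpaired, by edgeR 4.0.16's quasi-likelihood test (R 4.3.3) and p-values were adjusted by Benjamini-Hochberg over the 15774 tested genes, with calls under 0.05. The SE is the log2 fold change over the square root of F. Alternatives used DESeq2 1.42.0, limma-voom (limma 3.58.1), other scalings and filters, and each library left out. TPM used merged exon lengths. Precision is set by 3 libraries per group.

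Members and lists were chosen with earlier results of these data known. By rule, each list is described by up to 4 genes, those with the smallest p among genes averaging 5 CPM or more (1 such gene among the other oxidases), and each member by its nearest profile. Cybc1, Nrros, Spi1, Mpo, Kcnn4, Kcna3, Pld2, Nox3, Duoxa1 and the neighbouring genes were added after their values were seen. Some list genes and sequences are not reported here.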

Additional observations from a re-analysis of the deposited data

How the results depend on the processing

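Of the 7 members, 0 were called under each of the 12 alternatives tried (6 were tested where genes averaging under 10 CPM were dropped, which removes Hvcn1). Cybb and Ncf1 kept a positive log2 fold change in all 12. There were 12 sign changes, all in members whose estimate over the 6 libraries lay close to 0. With 1 library left out, log2 fold changes ran from -0.22 to 0.062 for Cyba, from -0.33 to 0.068 for Ncf4, from -0.073 to 0.025 for Rac1, from -0.12 to 0.14 for Rac2 and from -0.29 to 0.27 for Hvcn1. Rac1 was also above 0, at 0.0025, when genes averaging under 10 CPM were dropped. The cause was not tested. Over all genes edgeR called 1 gene, against 155 by DESeq2, 70 with no filter on low counts, 18 above that limit of 10 CPM, and 0 to 2 with 1 library left out. Among the genes around the oxidase edgeR called 0, against 3 by DESeq2 and 3 with no filter (Cux1, Irf1 and S100a8, all lower), 2 above 10 CPM (Cux1 and Irf1), and 0 to 1 with 1 library left out (S100a8 without mutant replicate 2). The order of mean levels was the same under every length, scaling and left-out library tried. An alternative chosen after seeing the data divided all counts of each member by its exon bases in no other gene. That assumes reads over shared bases were dropped. Genes other than the members kept their merged exon lengths, and values were not rescaled. With these member lengths Rac1 lay above Ncf1 in 3 of 6 libraries and above Ncf4 in 3 of 6. The step between Ncf1 and Rac1 then no longer held in every library. No paired analysis was possible because the labels give no pairing number, and equal replicate numbers in the 2 groups do not mark a pair. With 3 libraries per group, the 95% interval of Rac1 is the narrowest and that of Hvcn1, at 64 to 199 counts, the widest of the members.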
